A study of Mus musculus with 5 samples.

Results

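Mitochondrial carriers move metabolites, nucleotides, inorganic ions and cofactors across the inner mitochondrial membrane, which is otherwise closed to them. To describe how this family was expressed after loss of estrogen-related receptor gamma (ERRγ, encoded by Esrrg) from dopaminergic neurons, all protein-coding genes with a symbol that starts with Slc25a were taken from the deposited count table, together with the uncoupling proteins Ucp1, Ucp2 and Ucp3 and the outer membrane porins Vdac1, Vdac2 and Vdac3. The choice used symbols and gene class only, and it gave 53 genes of the 53700 gene IDs in the table. Of these, 47 were Slc25a genes. A pair of pseudogenes, Slc25a5-ps and Vdac3-ps1, was left out by the gene class. The DESeq2 fit gave an adjusted p for 46 of the 53 genes, and the other 7 (Slc25a2, Slc25a31, Slc25a41, Slc25a43, Slc25a48, Slc25a54 and Ucp1) fell below its filter on low counts.

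Ribosome-bound RNA was purified from pooled midbrains of C57BL/6 mice by BAC-TRAP, in which an antibody against EGFP pulls down tagged ribosomes with their mRNAs. The 3 Esrrg WT libraries (genotype L10a;Esrrg WT, replicates 2, 3 and 4) and the 2 Esrrg Flox libraries (genotype L10a;Esrrg Flox, replicates 2 and 4) came from mice aged 4 months, 1 month after deletion was started. All mice in both groups carried the Cre-dependent EGFP-L10a transgene and received AAV:THCre, a virus that expresses Cre from the Th promoter, so that both groups differed by the floxed exon 2 of Esrrg. Each library pools animals of both sexes, and the tag and the deletion depend on where the virus reached and where the Th promoter was active.

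SLC25 carriers share a fold made of repeats, and each repeat holds a signature of proline, a variable residue, an acidic residue, a pair of variable residues and a basic residue. The ADP/ATP carriers (Slc25a4, Slc25a5 and the testis form Slc25a31) export ATP made by oxidative phosphorylation in exchange for ADP, and the phosphate carrier Slc25a3 brings in the phosphate that ATP synthase needs. The aspartate/glutamate carrier Slc25a12 and the oxoglutarate carrier Slc25a11 together form the membrane part of the malate-aspartate shuttle, by which neurons pass reducing equivalents from the cytosol to the respiratory chain. Uncoupling proteins are SLC25 relatives, and Ucp1 is the proton leak protein of brown fat. Porins are β-barrel channels of the outer membrane and belong to a different protein fold.

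The carriers could be told apart by their sequences and at the same time showed their common origin. A script searched the coding sequences (GENCODE M21) in frame for the 6 codons of the carrier signature. Of the 50 Slc25a and Ucp coding sequences, 30 held 3 or more copies, 12 held 2, 5 held 1 and 3 (Slc25a46, Slc25a51 and Slc25a53) held 0. None of the 3 porin coding sequences held a copy. The last copy is shown with the neighbouring bases for Slc25a5, Slc25a23 and Ucp2, which passed the test below, in coding orientation, with the signature codons in capitals.

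Slc25a5: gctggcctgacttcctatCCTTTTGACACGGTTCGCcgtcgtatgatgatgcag

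Slc25a23: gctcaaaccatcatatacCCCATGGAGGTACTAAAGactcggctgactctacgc

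Ucp2: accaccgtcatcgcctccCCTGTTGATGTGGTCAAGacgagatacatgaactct

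ADP/ATP carriers hold a second signature of arginines and methionines that other carriers of the family lack and that is used to recognise them. Its codons are shown in capitals for the 3 ADP/ATP carriers, because Slc25a4 and Slc25a5 are compared below. The stretch spans coding bases 679 to 744 in Slc25a4 and Slc25a5 and 718 to 783 in Slc25a31.

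Slc25a4: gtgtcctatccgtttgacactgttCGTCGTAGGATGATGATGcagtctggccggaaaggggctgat

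Slc25a5: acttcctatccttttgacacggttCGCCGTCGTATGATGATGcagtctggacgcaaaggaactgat

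Slc25a31: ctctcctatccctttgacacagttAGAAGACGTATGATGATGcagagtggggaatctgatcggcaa

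Over the whole coding sequence, Slc25a4 and Slc25a5 were identical at 701 of 891 aligned bases (78.7%), and Slc25a31 shared 67.9% with Slc25a4 and 69.2% with Slc25a5. Ucp2 and Ucp3 shared 75.9% of aligned coding bases, Slc25a12 and its liver-type relative Slc25a13 72.3%, Slc25a23 and Slc25a25 71.5%, and Vdac1 and Vdac2 71.9%. Reads that aligned to more than 1 place were not counted for any gene. The left-out pseudogenes held few reads, with 3 to 6 counts per library for Slc25a5-ps and 74 to 87 for Vdac3-ps1. The exons of 16 of the 53 genes overlapped another gene in the annotation, and the libraries were not strand-specific, so counts in those stretches are uncertain. Overlaps took 31.3% of the exon bases of Slc25a35 (with Rangrf), 14.9% of Slc25a33 (with Gm13068), 8.92% of Slc25a11 (with Rnf167), 4.36% of Ucp2 (with Dnajb13) and 3.17% of Slc25a23 (with Gm17168).

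Libraries held 20635855 to 23105058 assigned counts. Esrrg itself (ENSMUSG00000026610.14, chromosome 1) had 1763, 1643 and 1726 normalized counts in WT replicates 2, 3 and 4 and 1504 and 1170.1 in Flox replicates 2 and 4, where normalized counts are counts divided by the DESeq2 size factor of the library. Both Flox libraries lay below every WT library, with a log2 fold change of -0.35 ± 0.13 (SE) that missed the threshold in DESeq2 (adjusted p = 0.0753) and reached it without Flox replicate 2 (log2 fold change -0.55, DESeq2 adjusted p = 0.00582). Counts per gene do not measure the deleted exon. All 11 dopaminergic markers were detected, with summed levels of 2375 to 2742 CPM (counts scaled to a common library total) in WT and 2370 and 2413 in Flox, and only Ret passed the test (lower). Their median log2 fold change was -0.15. Both Flox libraries lay below every WT library for 4 of the 11 and above for 2, against 22.5% and 19.9% of all genes tested. Markers of other cells were present too, since the 9 astrocyte markers summed to 3481 to 4908 CPM in WT and the 8 oligodendrocyte markers to 5087 to 7260. None of the astrocyte or oligodendrocyte markers passed the test, nor did any of 3 glutamatergic and 5 blood markers, while of 6 GABAergic markers 1 was higher and 1 lower. None of the marker genes was at 0 in all libraries. The Flox libraries had higher microglial markers (10 of 12 passed the test, summed 83.7 to 168.8 CPM in WT against 293 and 633.7 in Flox) and endothelial markers (3 of 8, summed 5.76 to 13.4 in WT against 13.6 and 33.9 in Flox). Over all genes with an adjusted p, 4.2% passed the test as higher in Flox and 4.05% as lower. In bulk RNA, fewer cells of a type and less RNA per cell cannot be told apart.

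The family took 0.662%, 0.654% and 0.682% of the assigned counts in WT replicates 2, 3 and 4, and 0.626% and 0.627% in Flox replicates 2 and 4. Both Flox libraries were below the lowest WT library. With the 4 genes that passed the test left out, the shares were 0.583%, 0.577% and 0.601% in WT and 0.562% and 0.568% in Flox, and the groups still did not overlap. Shares of total counts were lower in Flox for genes in general. With total counts as the scaling, the median log2 fold change was -0.040 over all genes tested and -0.087 over the family. Slc25a4 alone made up 26.0% to 26.5% of the family's counts in WT and 27.2% and 27.4% in Flox.

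Levels of different genes were compared as WT normalized counts per kilobase of exon, with the exons of all annotated transcripts merged. The order therefore depends on the annotated length as well as on the counts. Slc25a3 (5550 bases) had more WT normalized counts than Slc25a5 (1646 bases), with means of 15653 and 7293.5. The order of the uncoupling proteins and the shares by role below carry the same limit. Slc25a4, the ADP/ATP carrier of heart, muscle and brain, was highest at 16222 ± 680 (SD, n = 3), followed by Vdac1 at 8626 ± 378, Slc25a5 at 4431 ± 392 and Slc25a3 at 2820 ± 198. The ranges of these 4 genes over the WT libraries did not overlap. Vdac2 (1641 to 1861 over the WT libraries), Slc25a39 (1667 to 1687) and Slc25a11 (1531 to 1717) came next and overlapped each other. Vdac3 followed at 1018 ± 37.9. Among the carriers of the malate-aspartate shuttle and of glutamate, Slc25a12 (805 ± 33.5) and Slc25a22 (784 ± 14) did not differ beyond their spread. The glutamate carrier Slc25a18 was at 925 ± 148. Its range over the WT libraries (811 to 1092) lay above that of Slc25a22 (769 to 797) and overlapped that of Slc25a12 (770 to 837). Slc25a12 exceeded its relative Slc25a13, which was at 35.4 ± 5.34.

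By role, the 8 ADP/ATP and phosphate carriers made up 51.3% of the summed WT level per kilobase and the 3 porins 23.9%. The 8 aspartate, glutamate and dicarboxylate carriers made up 11%, and the 9 nucleotide and cofactor carriers 4.58%. The 4 iron and glutathione carriers held 4.18%, the 6 amino acid and carnitine carriers 2.21%, the 6 uncoupling proteins 1.85% and the 9 other members 1.08%. Among the uncoupling proteins, the brain-expressed Slc25a14 was highest at 525 ± 30.1 per kilobase, then Slc25a27 at 191 ± 15.9, Ucp2 at 112 ± 7.5, Slc25a30 at 30.4 ± 5.5 and Ucp3 at 21.6 ± 8.39. The ranges of Slc25a30 and Ucp3 overlapped. Ucp1 had 1 count in WT replicate 3, 1 in Flox replicate 4 and 0 in the other libraries, where 0 counts allow a level of up to 0.130 to 0.145 CPM in those libraries (counting error only). The testis form Slc25a31 had 0 to 4 counts per library.

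**Figure D1:**
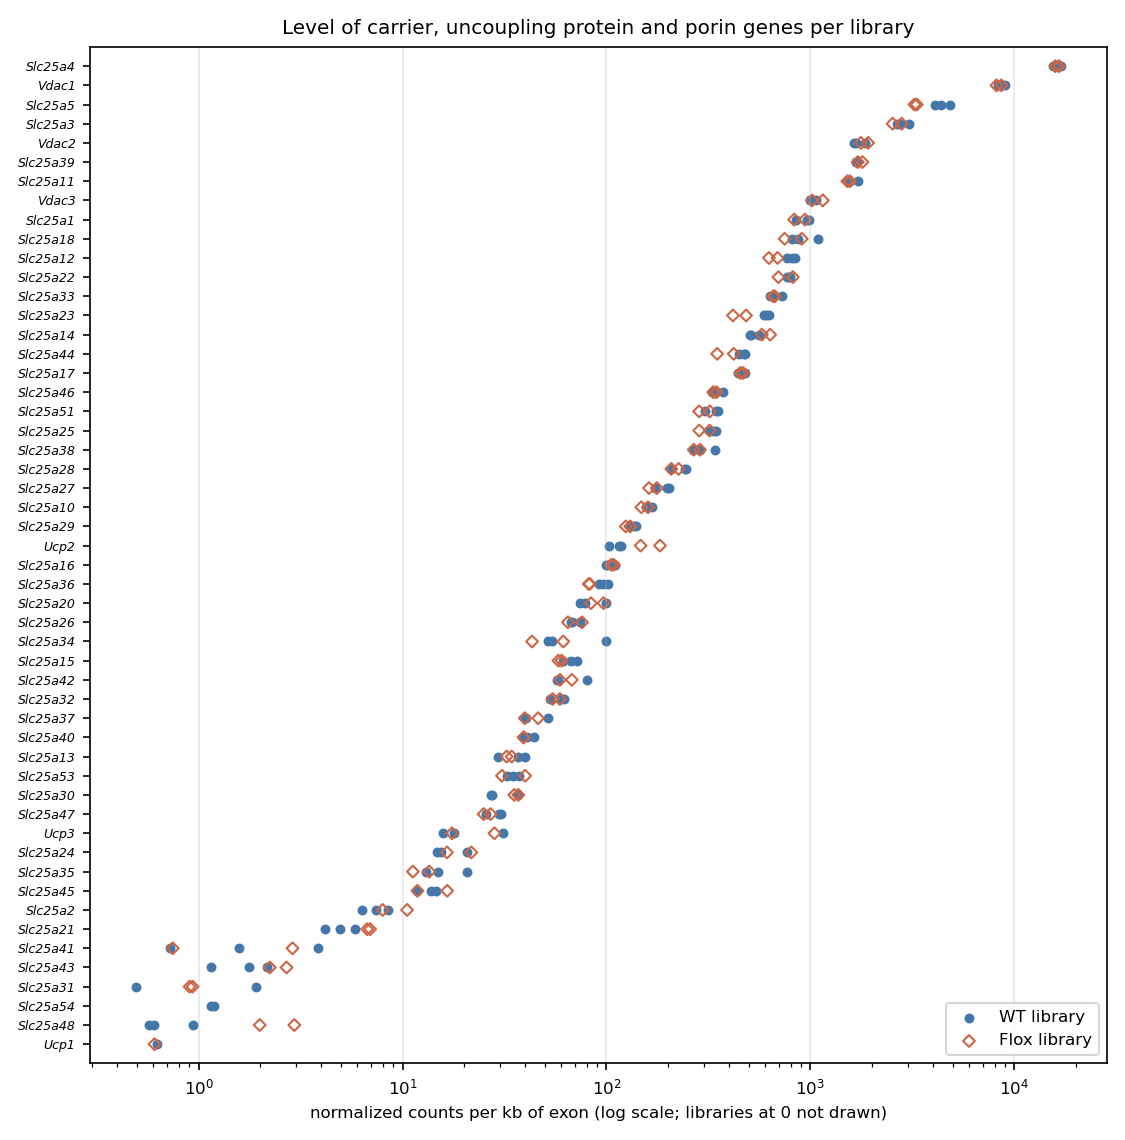
Each point is a library (filled for WT, n = 3, open for Flox, n = 2), the x axis gives normalized counts per kilobase of exon on a log scale, and genes are ordered by their WT mean. The levels run from 16222 for Slc25a4 to 0.208 for Ucp1, and the Flox points of Slc25a5, Slc25a23 and Slc25a12 lie to the left of the WT points while those of Ucp2 lie to the right. Libraries with 0 counts (of Slc25a31, Slc25a54 and Ucp1) are not drawn.

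The comparison of Flox with WT asked whether carrier expression depended on Esrrg. Of the 46 genes with an adjusted p, 3 were lower in Flox (Slc25a5, Slc25a23 and Slc25a12) and 1 was higher (Ucp2) at a DESeq2 adjusted p under 0.05. Over all 15724 genes with an adjusted p, 4.05% were lower and 4.2% higher, so the share of carriers that passed (8.70%) was close to the background of 8.25%. With the study's added demand of a fold change of at least 1.5, none of the 46 passed in either direction, against 1.77% of all genes higher and 1.41% lower. At an unadjusted DESeq2 p under 0.05 there were 5 genes, the same 4 and Slc25a44 (lower). The edgeR quasi-likelihood test, used as a second tool on 47 of the genes, passed 0 of them against 1.42% of all genes, with 6 at an unadjusted p under 0.05.

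Most of the family showed small differences. The median log2 fold change was -0.052 over the 46 genes and -0.0063 over all genes tested, with 31 estimates below 0 and 15 above, and 35 of the 46 lay within 0.2 of 0. Both Flox libraries were below every WT library for 8 genes (17.4%, against 22.5% of all genes) and above for 4 (8.70%, against 19.9%), and the groups overlapped for 34.

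**Figure D2:**
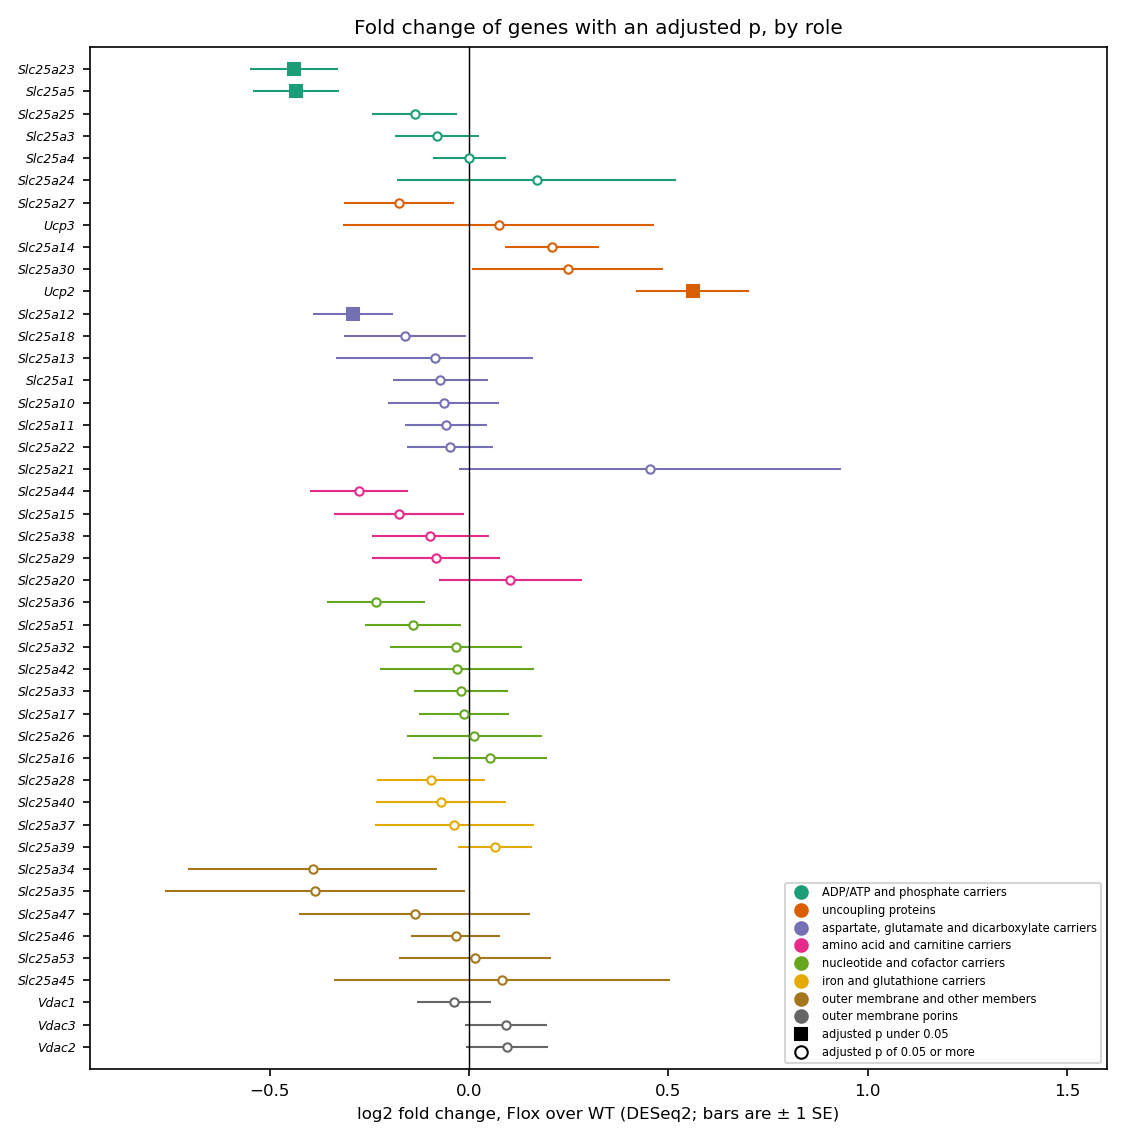
The x axis gives the log2 fold change of Flox over WT from DESeq2 with bars of 1 SE, for genes with an adjusted p, grouped and coloured by role. Filled squares mark the 4 genes with an adjusted p under 0.05, of which Slc25a23, Slc25a5 and Slc25a12 lie at -0.44, -0.43 and -0.29 and Ucp2 at 0.56, and most open circles lie near 0.

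Among the ADP/ATP carriers, Slc25a5 fell and Slc25a4 did not pass the test. Slc25a5 (ENSMUSG00000016319.4, chromosome X), the broadly expressed ADP/ATP carrier, had 7163, 6723 and 7995 normalized counts in WT replicates 2, 3 and 4 and 5474 and 5331 in Flox replicates 2 and 4. Both Flox libraries were below every WT library and close to each other. Slc25a5 decreased by 25.9% between the group means, with a log2 fold change of -0.43 ± 0.11 (SE, DESeq2 adjusted p = 0.00291). Slc25a4 (ENSMUSG00000031633.5, chromosome 8), by contrast, had 38169, 36570 and 39769 normalized counts in WT and 37415 and 38993 in Flox. The groups overlapped, and the log2 fold change was 0.0013 ± 0.091 (DESeq2 adjusted p = 0.997), with a 95% confidence interval of -0.18 to 0.18 that does not reach the value of Slc25a5. The sign of this near-zero value changed with the scaling of the libraries, from -0.033 with total counts to 0.033 with upper-quartile scaling.

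As a comparison within each library, which does not depend on scaling, there were 18.8, 18.4 and 20.1 Slc25a5 reads per 100 Slc25a4 reads in WT replicates 2, 3 and 4, and 14.6 and 13.7 in Flox replicates 2 and 4. The ratio was 19.1 ± 0.90 (SD, n = 3) in WT and 14.2 ± 0.68 (SD, n = 2) in Flox, without overlap. An exact permutation test (two-sided) gave p = 0.2, the smallest value that 3 against 2 libraries allow. This ratio was chosen after the values were seen.

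The phosphate carrier Slc25a3 had 15282, 14791 and 16887 normalized counts in WT and 14046 and 15570 in Flox, with a log2 fold change of -0.080 ± 0.10 (DESeq2 adjusted p = 0.762). Its groups overlapped. The ATP-Mg/phosphate carriers exchange ATP-Mg for phosphate under the control of calcium and so set the adenine nucleotide content of the matrix. Of these, Slc25a23 (ENSMUSG00000046329.15, chromosome 17) had 3150, 3217 and 3330 normalized counts in WT and 2562 and 2208 in Flox. Flox replicate 4 was the lowest, and no Flox library reached the WT range. Slc25a23 decreased by 26.2%, with a log2 fold change of -0.44 ± 0.11 (DESeq2 adjusted p = 0.00299).

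Its relative Slc25a25 also had both Flox libraries below WT (2603, 2712 and 2535 against 2520 and 2241), but with a log2 fold change of -0.14 ± 0.11 it missed the threshold (DESeq2 adjusted p = 0.539). There were 123.7 ± 6.78 Slc25a23 reads per 100 Slc25a25 reads in the 3 WT libraries (mean ± SD) against 100.1 ± 2.22 in the 2 Flox libraries, again with an exact permutation p of 0.2, the smallest possible, and again chosen after the values were seen. The third relative, Slc25a24, was low at 50.6 to 71.1 normalized counts in WT and 56.7 and 74.6 in Flox, and Slc25a41 had 1 to 5 counts per library. Of the 6 ADP/ATP and phosphate carriers with an adjusted p, 2 were lower and 0 were higher, against 4.05% and 4.2% of all genes. Their median log2 fold change was -0.11.

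Among the 8 carriers of aspartate, glutamate and dicarboxylates, only Slc25a12 passed the test (lower), against 4.05% of all genes lower and 4.2% higher. Slc25a12 (ENSMUSG00000027010.17, chromosome 2), the calcium-activated aspartate/glutamate carrier of brain and muscle, had 6146, 5656 and 5933 normalized counts in WT and 5068 and 4599 in Flox. The Flox libraries were the 2 lowest. Slc25a12 decreased by 18.2%, with a log2 fold change of -0.29 ± 0.10 (DESeq2 adjusted p = 0.0483), just inside the threshold. Slc25a11, its partner in the malate-aspartate shuttle, had 3245, 3307 and 3640 normalized counts in WT and 3312 and 3218 in Flox, which overlapped (log2 fold change -0.057 ± 0.10, DESeq2 adjusted p = 0.840). The glutamate carrier Slc25a22 had 4608, 4775 and 4705 in WT, and its Flox libraries lay on either side of WT at 4175 and 4917 (log2 fold change -0.047 ± 0.11, DESeq2 adjusted p = 0.882).

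Reads of Slc25a12 per 100 reads of Slc25a11 were 174.5 ± 13.6 in the 3 WT libraries (mean ± SD) against 148 ± 7.15 in the 2 Flox libraries, without overlap (exact permutation p = 0.2, the smallest possible, ratio chosen after the values were seen). The oxoadipate carrier Slc25a21 had both Flox libraries above WT, at a low level of 20.4 to 28.4 normalized counts in WT and 32.7 and 33.8 in Flox (log2 fold change 0.45 ± 0.48, DESeq2 adjusted p = 0.686). The citrate carrier Slc25a1, the dicarboxylate carrier Slc25a10 and the glutamate carrier Slc25a18 overlapped between the groups, as did Slc25a13. The median log2 fold change of the 8 genes was -0.067.

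**Figure D3:**
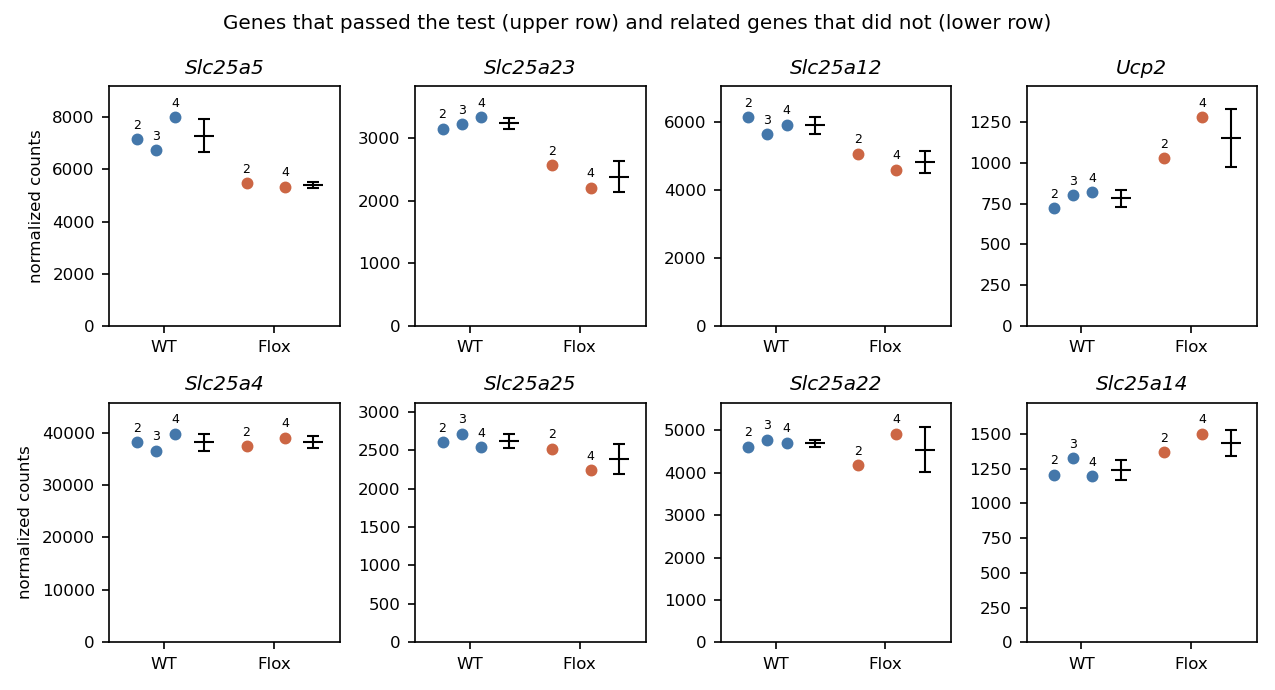
Each panel shows normalized counts of a gene (y axis from 0) in WT replicates 2, 3 and 4 and Flox replicates 2 and 4, with the group mean ± SD to the right of the points. In the upper row (Slc25a5, Slc25a23, Slc25a12 and Ucp2) the groups do not overlap. In the lower row the related genes Slc25a4 and Slc25a22 overlap, while Slc25a25 and Slc25a14 do not overlap and missed the threshold.

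Ucp2 was the only carrier that passed the test as higher in Flox, where microglial markers were higher too. Ucp2 (ENSMUSG00000033685.14, chromosome 7) is a proton and metabolite carrier that is abundant in immune cells and is also expressed in some neurons. It had 722, 803 and 820 normalized counts in WT replicates 2, 3 and 4 and 1028 and 1279 in Flox replicates 2 and 4. Both Flox libraries were above WT and replicate 4 was the higher of them. The group mean was 47.6% higher in Flox, with a log2 fold change of 0.56 ± 0.14 (DESeq2 adjusted p = 0.00334). The 12 microglial markers summed to 136.5, 168.8 and 83.7 CPM in WT replicates 2, 3 and 4 and to 293 and 633.7 CPM in Flox replicates 2 and 4. Flox replicate 4 was highest in both measures, but within WT replicate 4 had the most Ucp2 and the fewest microglial marker reads. The part of the microglial and endothelial RNA in the Ucp2 result was not tested.

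**Figure D4:**
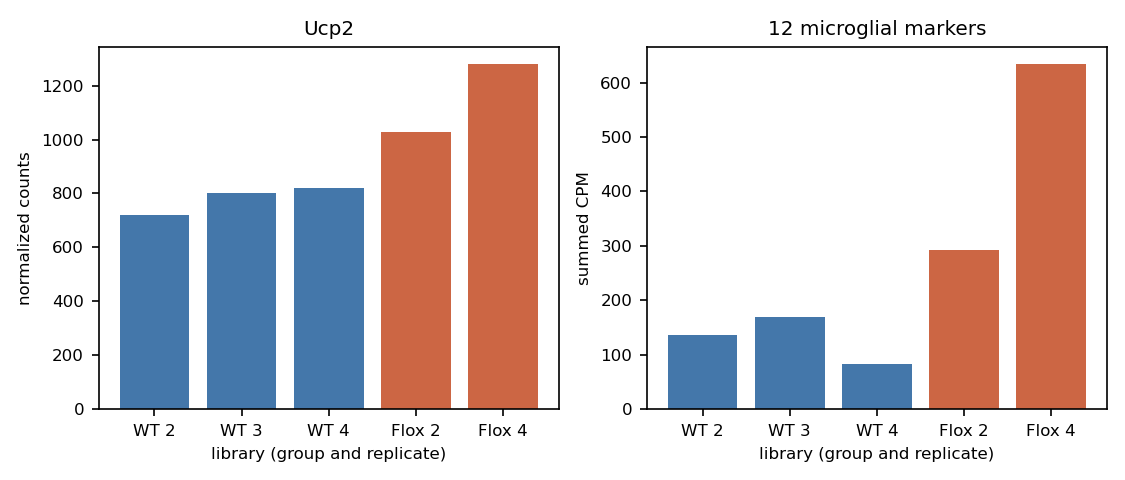
Bars give, per library, the normalized counts of Ucp2 (left) and the summed CPM of 12 microglial markers (right). In both panels Flox replicate 4 is highest (1279 normalized counts and 633.7 CPM) and Flox replicate 2 next (1028 and 293), while the order of the WT libraries differs between the panels.

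The brain-expressed uncoupling protein Slc25a14 had 1205, 1324 and 1196 normalized counts in WT and 1367 and 1501 in Flox. Both Flox libraries were above WT, and the log2 fold change of 0.21 ± 0.12 missed the threshold (DESeq2 adjusted p = 0.321). Slc25a27, the other uncoupling protein enriched in brain, had 779, 798 and 681 normalized counts in WT and 696 and 636 in Flox, which overlapped (log2 fold change -0.18 ± 0.14, DESeq2 adjusted p = 0.537). Ucp2 reads per 100 Slc25a14 reads were 63.0 ± 4.78 in the 3 WT libraries (mean ± SD) against 80.2 ± 7.10 in the 2 Flox libraries, without overlap (exact permutation p = 0.2, the smallest possible, ratio chosen after the values were seen). Ucp3 and Slc25a30 overlapped between the groups. Of the 5 uncoupling proteins with an adjusted p, 1 was higher and 0 were lower, against 4.2% and 4.05% of all genes. Their median log2 fold change was 0.21.

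The porins carry metabolites across the outer membrane, and none of the 3 passed the test. Vdac1 had 22423, 21711 and 23666 normalized counts in WT and 21427 and 22637 in Flox (log2 fold change -0.037 ± 0.093, DESeq2 adjusted p = 0.896). Vdac2 had 8008, 7825 and 8873 in WT and 8437 and 9159 in Flox (0.095 ± 0.10, DESeq2 adjusted p = 0.697). Vdac3 had 5414, 5382 and 5752 in WT and 5526 and 6241 in Flox (0.093 ± 0.10, DESeq2 adjusted p = 0.704). The groups overlapped for each of the 3. The 95% confidence intervals of the log2 fold change were -0.22 to 0.15 for Vdac1, -0.11 to 0.30 for Vdac2 and -0.11 to 0.29 for Vdac3.

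Of the carriers of amino acids, cofactors, nucleotides, iron and glutathione, none passed the test. Both Flox libraries lay below WT for Slc25a44, a carrier of branched-chain amino acids (log2 fold change -0.28 ± 0.12, DESeq2 adjusted p = 0.162), and for Slc25a36, a pyrimidine nucleotide carrier (-0.23 ± 0.12, DESeq2 adjusted p = 0.269). The same held for the ornithine carrier Slc25a15 (-0.18 ± 0.16, DESeq2 adjusted p = 0.629). Slc25a39, which is needed for glutathione import, had both Flox libraries slightly above WT (0.065 ± 0.093, DESeq2 adjusted p = 0.788). The median log2 fold change was -0.097 for the 5 amino acid and carnitine carriers tested, -0.031 for the 9 nucleotide and cofactor carriers and -0.053 for the 4 iron and glutathione carriers. The 6 tested genes with other or unknown substrates ranged from -0.39 to 0.083, and their groups overlapped. Slc25a43 (2 to 4 counts per library in WT, 5 and 4 in Flox) and Slc25a48 (2 to 3 counts in WT, 7 and 10 in Flox) were too low for an adjusted p.

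The 4 calls depended on single libraries. Without Flox replicate 4 none of the 4 genes kept an adjusted p under 0.05, and the log2 fold changes were -0.42 for Slc25a5, -0.34 for Slc25a23, -0.23 for Slc25a12 and 0.39 for Ucp2. Without WT replicate 2 none kept it either, with DESeq2 adjusted p-values of 0.0635 for Slc25a5 and Slc25a23, 0.0978 for Ucp2 and 0.397 for Slc25a12. Slc25a12 was also lost without WT replicate 3 (DESeq2 adjusted p = 0.151) or WT replicate 4 (0.0770), while the other three kept an adjusted p under 0.05. All 4 were further from the WT mean in Flox replicate 4 than in Flox replicate 2. Flox replicate 4 was the library with the highest summed microglial markers. It also had the fewest normalized Esrrg counts (1170.1, against 1504 in Flox replicate 2). The part of either in the larger differences of Flox replicate 4 was not tested. The direction stayed the same for all 4 in every alternative that was run.

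Lists of genes that work beside the carriers were set against the same background of 4.2% of all genes higher and 4.05% lower. Of 20 other transporters of the inner membrane (pyruvate carriers, sideroflexins, the calcium uniporter complex and ABC transporters), 2 were lower, 0 were higher and the median log2 fold change was -0.052. Letm1, a cation/proton exchanger, had 2913, 2793 and 2635 normalized counts in WT and 2293 and 1907 in Flox (log2 fold change -0.40 ± 0.12, DESeq2 adjusted p = 0.0155). Abcb10, an ABC transporter with a part in heme synthesis, had 640, 704 and 601 in WT and 517 and 417 in Flox (-0.47 ± 0.16, DESeq2 adjusted p = 0.0360). Of 12 genes listed as carrier import machinery (Timm genes, Agk, Tomm70a, Mtch1 and Mtch2), 1 was higher and 0 were lower, with a median of 0.072. This was Timm13, a small chaperone of the intermembrane space, at 3441, 3567 and 3678 in WT and 4398 and 4990 in Flox (0.40 ± 0.10, DESeq2 adjusted p = 0.00519).

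Of 9 partners of porins and ADP/ATP carriers, 3 were higher and 1 was lower (against 4.2% and 4.05% of all genes), and the median log2 fold change was 0.15. The hexokinases, which bind VDAC, moved in opposite directions. Hk1, the main brain form, had 8250, 7265 and 8044 normalized counts in WT and 6557 and 5753 in Flox (log2 fold change -0.35 ± 0.11, DESeq2 adjusted p = 0.0236), and Hk2 had 93.8, 112 and 63.4 in WT and 141 and 217 in Flox (1.00 ± 0.30, DESeq2 adjusted p = 0.0206). The outer membrane protein Tspo had 248, 217 and 261 in WT and 296 and 462 in Flox (0.65 ± 0.22, DESeq2 adjusted p = 0.0398), and the apoptosis gene Bax had 763, 683 and 783 in WT and 916 and 1103 in Flox (0.44 ± 0.14, DESeq2 adjusted p = 0.0273). Hk2, Tspo and Bax were highest in Flox replicate 4, as the microglial markers were, and the part of microglial RNA in these results was not tested. With edgeR, without Flox replicate 4 or without WT replicate 2, 0 genes of these 3 lists passed. Without WT replicate 3, the counts were 0 lower among the other transporters, 0 higher among the import genes, and 1 higher and 1 lower among the partners.

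**Figure D5:**
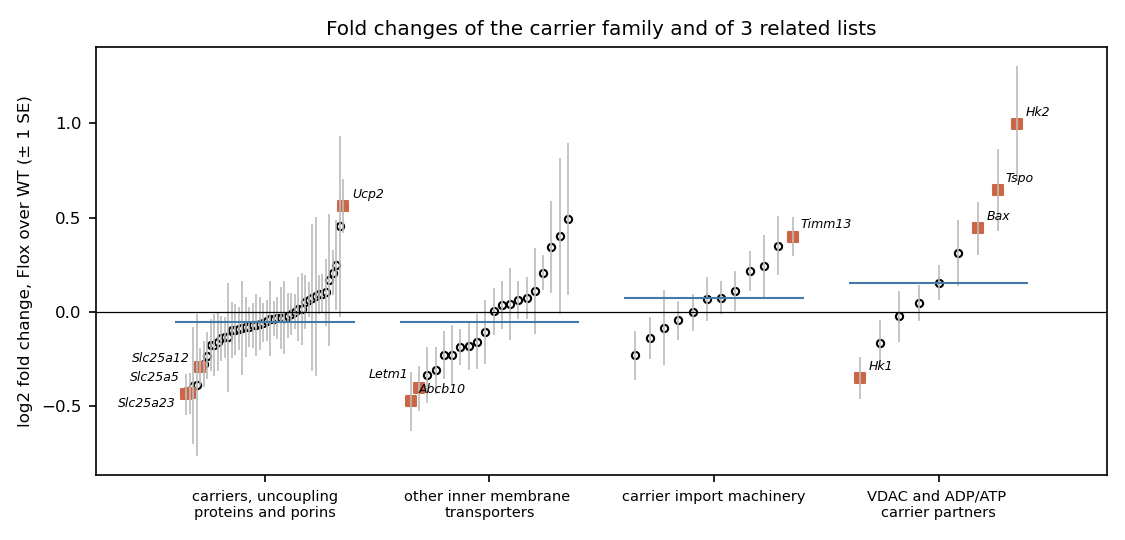
Each point is the log2 fold change of Flox over WT of a gene with a bar of 1 SE, sorted within 4 lists on the x axis, and the horizontal line is the list's median (-0.052, -0.052, 0.072 and 0.15 from left to right). Filled squares with names have a DESeq2 adjusted p under 0.05, among them Hk1 at -0.35 and Hk2 at 1.00 in the list of partners.

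ERRγ binds the element TNAAGGTCA, an extended form of the nuclear receptor half-site AGGTCA. Promoter windows of 250 bases before to 50 bases after the start (RefSeq, GRCm38.p6) were found for 40 of the 53 genes. Searched on both strands, TNAAGGTCA was in 0 of the 40 and in 1.43% of 27025 genes, and AGGTCA, which TNAAGGTCA contains, was in 7 of the 40 (17.5%) and in 18.1% of genes. The 7 were Slc25a34, Slc25a39, Slc25a45, Slc25a47, Ucp1, Ucp3 and Vdac1, none of which passed the test. The bases before the start are shown for Vdac1 (chr11:52361347-52361596, plus strand), with the half-site on the reverse strand in capitals, and for Slc25a5 (chrX:36795347-36795596, plus strand), which has no match. Matches are descriptions of letters and do not show binding.

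Vdac1: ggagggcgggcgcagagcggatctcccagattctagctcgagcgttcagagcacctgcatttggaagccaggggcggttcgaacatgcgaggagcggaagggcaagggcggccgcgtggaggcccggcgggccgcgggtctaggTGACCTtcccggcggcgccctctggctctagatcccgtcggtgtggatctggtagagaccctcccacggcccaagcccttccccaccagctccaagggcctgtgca

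Slc25a5: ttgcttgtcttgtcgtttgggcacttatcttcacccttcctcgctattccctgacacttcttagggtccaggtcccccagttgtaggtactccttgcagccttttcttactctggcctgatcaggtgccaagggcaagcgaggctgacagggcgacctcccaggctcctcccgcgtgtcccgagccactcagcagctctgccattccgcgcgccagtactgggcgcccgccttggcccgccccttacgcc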

How the data were processed

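Poly(A)-selected BAC-TRAP RNA was sequenced as paired-end reads without strand information. The authors trimmed and aligned reads and counted them per gene, and the deposited table holds raw counts per gene. The submitters' processing notes name CASAVA, Trim Galore 0.6.6, STAR 2.7.9a, HTSeq 0.11.3, DESeq2 and the build GRCm39, while the study's methods name GRCm38, so the build is uncertain and no gene coordinates are given from the table. Reads outside genes (3.18% to 4.45%), in more than 1 gene (5.62% to 5.78%) or aligned to more than 1 place (3.60% to 4.23%) were left out of library sizes.

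Symbols and gene classes were assigned to 52093 IDs (97.0%) from GENCODE M21, and 1607 IDs stayed unnamed in the fit. Counts of all genes with at least 1 count were fitted with DESeq2 1.42.0 in R 4.3.3 (Wald test, two-sided, default size factors, independent filtering at 0.05, Benjamini-Hochberg adjustment over all genes, all 5 libraries). The study's methods also name DESeq2, these groups and an adjusted p of 0.05, with a fold change of 1.5 in addition, and do not state the other settings. A gene passed at an adjusted p under 0.05. The second tool was edgeR 4.0.16 (quasi-likelihood test, TMM scaling, the tool's default filter on expression). Other alternatives, run with DESeq2, changed the scaling, the filters and the design, or left out a library. The filters were at least 10 counts in at least 2 libraries, or no independent filtering.

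Values are mean ± SD over libraries. Every pair of libraries differed by more than counting noise (chi-square per degree of freedom 4.25 to 45.8). The study's methods describe each sample as a pool of injected mice, and p-values measure the spread between these pools. A count of 0 allows up to 3 counts (0.130 to 0.145 CPM), a limit that covers counting error only.

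Genes were given in full if they passed the test or were Slc25a3, Slc25a4, Slc25a5, Slc25a11, Slc25a12, Slc25a14, Slc25a22, Slc25a27, Ucp2 or a porin. The others were given by count, with fold changes where the groups did not overlap, and list genes were named where they passed. The genes, roles, lists and markers (other inner membrane transporters, carrier import, partners, dopaminergic, GABAergic, glutamatergic, microglial, endothelial, astrocyte, oligodendrocyte and blood) were chosen with earlier results of these data known. The search for protein signatures was run on codons of the annotated coding sequences, since no protein sequences were used here. Ratios between genes and the sequence identities of Slc25a12 and Slc25a23 with their relatives were added after the data were seen. The values of a carrier and a stretch of sequence are not reported here, though the carrier stays in the counts and medians.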

Additional observations from a re-analysis of the deposited data

How the results depend on the processing

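Slc25a5, Slc25a23, Slc25a12 and Ucp2 kept their direction under every alternative, and all 4 kept an adjusted p under 0.05 with TMM or total-count scaling, with the filter of 10 counts in 2 libraries and without Flox replicate 2. With edgeR 0 carriers were higher and 0 lower, and with the added fold change of 1.5 likewise 0 and 0. Slc25a12 was the gene lost with upper-quartile scaling (DESeq2 adjusted p = 0.102) and without independent filtering (0.0899). Leaving out a library gave 0 to 1 carriers higher and 0 to 3 lower. The causes were not tested.

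The median log2 fold change of the carriers was -0.087 with total counts, -0.021 with upper-quartile scaling and between -0.063 and -0.031 when a library was left out. The median of all genes was -0.0063 in the DESeq2 fit of the report, -0.040 with total counts and 0.025 with upper-quartile scaling. Carriers with both Flox libraries below WT numbered 5 with upper-quartile scaling, 9 with TMM, 12 with total counts and 9 to 17 when a library was left out. Those above WT numbered 4 with upper-quartile scaling or TMM, 3 with total counts and 4 to 11 when a library was left out, since fewer libraries make separation easier. The shares of all genes below or above WT were not computed for these alternatives. These counts therefore cannot be set against a background.

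Among the partners, 0 were higher with edgeR, 1 without independent filtering and 0 to 3 when a library was left out, and 0 were lower with edgeR and 0 to 1 when a library was left out. Import genes higher numbered 0 with edgeR and 0 to 2 when a library was left out. Other transporters lower numbered 0 with edgeR, 1 without independent filtering, 1 with upper-quartile scaling and 0 to 4 when a library was left out. The Esrrg log2 fold change ran from -0.55 to -0.19 when a library was left out.

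Leaving out a library turned the sign of some carriers not given in full, among them Slc25a24 (-0.044 to 0.36) and Ucp3 (-0.32 to 0.44). Among the genes given in full, signs that turned belonged to values near 0. Slc25a4 was at -0.0068 with TMM, -0.033 with total counts, 0.033 with upper-quartile scaling and -0.032 to 0.031 when a library was left out, Slc25a22 at -0.17 to 0.066, Vdac1 at -0.080 to 0.0022 and Vdac3 at -0.0011 to 0.18.

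WT and Flox share the replicate numbers 2 and 4, but no label says that a number marks a shared day or cohort. Deviations from the group mean correlated at 0.10 between the libraries numbered 2 and at 0.091 between those numbered 4 (16583 genes). Deviations of the 2 Flox libraries from their mean are mirror images, so WT replicate 2 gave -0.10 with Flox replicate 4. Likewise WT replicate 4 gave -0.091 with Flox replicate 2, and these correlations are not independent. With the replicate number as a block, 1 carrier was higher and 2 were lower (Slc25a12 was lost, adjusted p = 0.128), and the numbers were 0 higher among the partners, 0 higher among the import genes and 0 lower among the other transporters, and Slc25a4 was at -0.029.

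With 3 and 2 libraries no permutation of a single gene can fall below p = 0.2 (exact, two-sided), and Slc25a2, with 9 to 15 counts per library, and the 6 carriers with fewer counts had no adjusted p.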

Other observations

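Some carriers that did not pass the test varied within the groups, and these were chosen after their values were seen. Slc25a18, a glutamate carrier expressed in astrocytes, had 1664, 1550 and 2087 normalized counts in WT replicates 2, 3 and 4 and 1429 and 1734 in Flox replicates 2 and 4. The 9 astrocyte markers summed to 4058, 3481 and 4908 CPM in the same WT libraries and to 3588 and 4504 CPM in the Flox libraries. Both measures were highest in WT replicate 4, with Flox replicate 4 next.

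The libraries numbered 4 were also the highest for some low carriers in both groups. Ucp3, the uncoupling protein of muscle, had 98.0 normalized counts in WT replicate 4 and 88.5 in Flox replicate 4, against 49.5 to 56.0 in the other WT libraries and 54.8 in Flox replicate 2. Slc25a20, the carnitine/acylcarnitine carrier, had 480 and 468 in the libraries numbered 4, against 358 and 381 in the other WT libraries and 406 in Flox replicate 2. Slc25a34 had 267 in WT replicate 4 and 164 in Flox replicate 4, against 144 and 138 in WT and 115 in Flox. The difference between libraries numbered 4 and the others was not tested.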
